A study of Mus musculus with 8 samples.

Results

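The 43 genes described here are transcribed mainly in cells that copy their DNA or divide. They were found by symbol among the 20275 gene symbols in the tables of 8 plates of single cells from mouse colon tumours, and all 43 were present. Of these, 15 act in S phase, when DNA is copied, 25 act in G2 and mitosis, and 3 (Stmn1, Tuba1b and Hmgb2) rise in cycling cells but also serve cells at rest. The tumours grew from engineered colon tumour organoids, the same in both groups, which were engrafted in the cecum of mice. In 4 FibΔZeb1 mice Zeb1, a transcription factor of mesenchymal cells, was deleted in fibroblasts by an inducible Cre. The labels call this transgene Col1a1Cre-ERT2 and the study's methods describe a Col1a2-CreERT2 allele with floxed Zeb1. The 4 FibCtrl mice lacked the Cre, and all 8 mice received a tamoxifen diet. Deletion in this model reaches only cells that use the collagen promoter, so grafted tumour cells and immune cells are not its targets. Each plate held EPCAM-positive, CD45-positive and marker-negative cells of 1 mouse, sorted 1 per well (SORT-seq), so the plate was the replicate.

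A cell enters the cycle when D-type cyclins and their kinases inactivate the retinoblastoma proteins and free the E2F factors, which switch on the genes of DNA replication. Later in the cycle a complex of MuvB proteins with B-Myb and FoxM1 switches on the genes of mitosis, many of which carry a CHR element and CCAAT boxes in their promoters. In the colon, division is normally limited to the crypt base, whereas immune cells divide in response to activation and mature neutrophils no longer divide.

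Many but not all promoters of the members carry such elements, and 6 that do are shown because the results below turn on their genes. The S-phase genes are Mcm6 and Mcm7, subunits of the replicative helicase. The mitotic genes are Cdk1, the kinase that drives entry into mitosis, Top2a, which untangles sister chromosomes, Mki67, which coats mitotic chromosomes, and Ube2c, an enzyme that tags mitotic cyclins for destruction. Each sequence is a RefSeq promoter of build GRCm38.p6, from 250 bases before the start site to 50 after it, on the strand of the gene. For a gene with several promoters, the promoter holding most kinds of the motifs below was chosen for display. Capitals mark matches, on either strand, to the E2F motif (TTTCGCGC, TTTGGCGC or TTTCCCGC), the CHR (TTTGAA) or the CCAAT box (CCAAT).
Mcm6 (chr1:128359656-128359955, minus strand): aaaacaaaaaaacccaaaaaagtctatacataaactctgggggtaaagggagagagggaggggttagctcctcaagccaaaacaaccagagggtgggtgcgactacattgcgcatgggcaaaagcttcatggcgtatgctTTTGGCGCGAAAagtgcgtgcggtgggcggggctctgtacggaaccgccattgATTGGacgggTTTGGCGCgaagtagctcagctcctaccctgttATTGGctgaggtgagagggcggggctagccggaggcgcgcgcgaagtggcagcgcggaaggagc
Mcm7 (chr5:138171834-138172133, minus strand): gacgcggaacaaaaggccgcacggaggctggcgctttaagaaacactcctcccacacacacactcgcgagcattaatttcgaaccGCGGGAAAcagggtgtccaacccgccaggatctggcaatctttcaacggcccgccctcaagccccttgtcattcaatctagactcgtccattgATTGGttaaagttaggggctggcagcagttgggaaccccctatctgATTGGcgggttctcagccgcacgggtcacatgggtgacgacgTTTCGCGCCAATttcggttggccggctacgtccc
Cdk1 (chr10:69352863-69353162, minus strand): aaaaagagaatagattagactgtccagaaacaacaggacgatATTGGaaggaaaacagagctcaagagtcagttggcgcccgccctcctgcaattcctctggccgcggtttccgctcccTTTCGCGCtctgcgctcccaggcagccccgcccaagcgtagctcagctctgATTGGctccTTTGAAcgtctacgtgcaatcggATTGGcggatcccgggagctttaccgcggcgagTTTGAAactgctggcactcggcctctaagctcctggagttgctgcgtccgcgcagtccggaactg
Top2a (chr11:99024140-99024439, minus strand): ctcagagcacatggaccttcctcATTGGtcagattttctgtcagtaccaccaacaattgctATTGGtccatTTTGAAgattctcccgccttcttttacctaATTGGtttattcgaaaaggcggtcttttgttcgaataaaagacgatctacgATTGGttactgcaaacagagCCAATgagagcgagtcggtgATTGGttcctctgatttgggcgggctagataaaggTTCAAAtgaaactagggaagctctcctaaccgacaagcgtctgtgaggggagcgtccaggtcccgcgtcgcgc
Mki67 (chr7:135716330-135716629, minus strand): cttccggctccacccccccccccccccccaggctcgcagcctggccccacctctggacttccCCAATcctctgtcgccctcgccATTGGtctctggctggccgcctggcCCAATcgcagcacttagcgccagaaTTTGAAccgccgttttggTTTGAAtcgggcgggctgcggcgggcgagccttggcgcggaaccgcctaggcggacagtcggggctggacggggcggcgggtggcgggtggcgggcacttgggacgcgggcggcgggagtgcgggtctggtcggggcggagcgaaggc
Ube2c (chr2:164769679-164769978, plus strand): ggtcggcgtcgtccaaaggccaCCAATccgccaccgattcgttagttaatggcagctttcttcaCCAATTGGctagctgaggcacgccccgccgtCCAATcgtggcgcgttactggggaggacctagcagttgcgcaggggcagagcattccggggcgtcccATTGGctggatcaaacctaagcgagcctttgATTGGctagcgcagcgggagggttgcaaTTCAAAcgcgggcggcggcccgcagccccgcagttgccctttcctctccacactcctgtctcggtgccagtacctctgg
In Mcm6 a pair of E2F matches overlap each other, in Mcm7 an E2F match overlaps a CCAAT box, and in Ube2c a pair of CCAAT boxes overlap. A promoter was found for 36 of the 43 members, and Stmn1, Tpx2, Ccna2, Mcm4, Aurkb, Kif20a and Ccne2 were not matched. The E2F motif lay in 6 of 13 S-phase promoters, namely Mcm3, Mcm5, Mcm6, Mcm7, Hells and Uhrf1, and in 1 of 21 mitotic promoters, that of Cdk1. Among all 32851 promoters of this length, 1.84% held it. The CHR lay in 16 of 21 mitotic promoters and in 1 of 13 S-phase promoters, that of Mcm2, against 17.9% of all promoters. A CCAAT box lay in 19 of 21 mitotic and 9 of 13 S-phase promoters, against 37.4% of all promoters. Each member was counted once if any of its promoters held the match, whereas the shares of all promoters count single promoters. A member with several promoters had more chances of a match, so the shares are not like measures. These matches describe the letters in the window and not a bound site.

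Of 3072 wells, 1831 passed the filters on depth and mitochondrial share, and the plates held between 981881 and 5905188 cell transcripts. Classes were rebuilt from marker genes, since no record of each well's sort was used. They held 326 epithelial, 141 T cell, 133 B cell, 150 macrophage, 146 fibroblast and 215 neutrophil wells, while 625 wells (34.1% of those kept) fell in no class. Fibroblast markers, which include abundant collagen transcripts, were found in every class, with a median of 20.26 per 10000 transcripts in macrophage, 33.03 in T cell and 36.22 in neutrophil wells. Levels are given as transcripts per 1000000 cell transcripts of the class on a plate, written CPM. On 2 of 7 T cell plates the summed fibroblast markers exceeded the summed T cell markers, at 5490 against 4876 CPM in FibCtrl replicate 1 and 4440 against 4262 in FibΔZeb1 replicate 1. Among the epithelial wells, 68 on 5 plates fell in a cluster whose leading genes were Twist1, a transcription factor of mesenchymal cells, and others that are no epithelial markers. Of these wells 98.5% held Epcam, and their median level was 57.89 per 10000 for epithelial and 33.16 for fibroblast markers, against 75.75 and 8.45 in the other 258 epithelial wells, so comparisons with epithelial wells are also given without them. Zeb1 itself, the deleted gene, stood at 86.5 and 77.6 CPM in the fibroblast wells of FibCtrl replicates 1 and 4. In FibΔZeb1 replicates 1, 3 and 4 it stood at 39.9, 49.1 and 30.8, below both FibCtrl plates but not at 0. Classes entered a comparison on plates with at least 10 of their wells, which left 8 plates for epithelial, 7 for T cell, 3 for B cell, 6 for macrophage, 5 for fibroblast and 7 for neutrophil wells.

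Summed levels of the S-phase members were highest in lymphocytes and lowest in fibroblasts among the 5 dividing classes. B cell wells averaged 1192 ± 529 (SD, n = 3 plates) and T cell wells 1185 ± 597 (n = 7). Epithelial wells averaged 860 ± 357 (n = 8) and macrophage wells 853 ± 383 (n = 6). Fibroblast wells averaged 455 ± 258 (n = 5), and neutrophil wells, the background of cells that do not divide, 289 ± 132 (n = 7). The plate values ran from 484 to 1654 in epithelial, from 673 to 2313 in T cell, from 383 to 1278 in macrophage and from 209 to 854 in fibroblast wells, so the ranges of these classes overlapped. Sums over wells cannot tell apart more cycling cells from more cell cycle RNA in each.

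The mitotic members varied far more between plates. Their sum averaged 1873 ± 1596 CPM in T cell wells, 1305 ± 1484 in B cell, 1300 ± 1076 in epithelial, 1212 ± 1447 in fibroblast and 782 ± 568 in macrophage wells. In neutrophil wells it averaged 347 ± 58.1, with plates between 281 and 415. The SD was larger than the mean in B cell and fibroblast wells, and 1 plate in each of these classes stood far above the others. FibCtrl replicate 1 reached 3013 in B cell wells, and FibΔZeb1 replicate 3 reached 3485 in fibroblast wells, where FibΔZeb1 replicate 4 had 92.3, below every neutrophil plate.

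**Figure D1:**
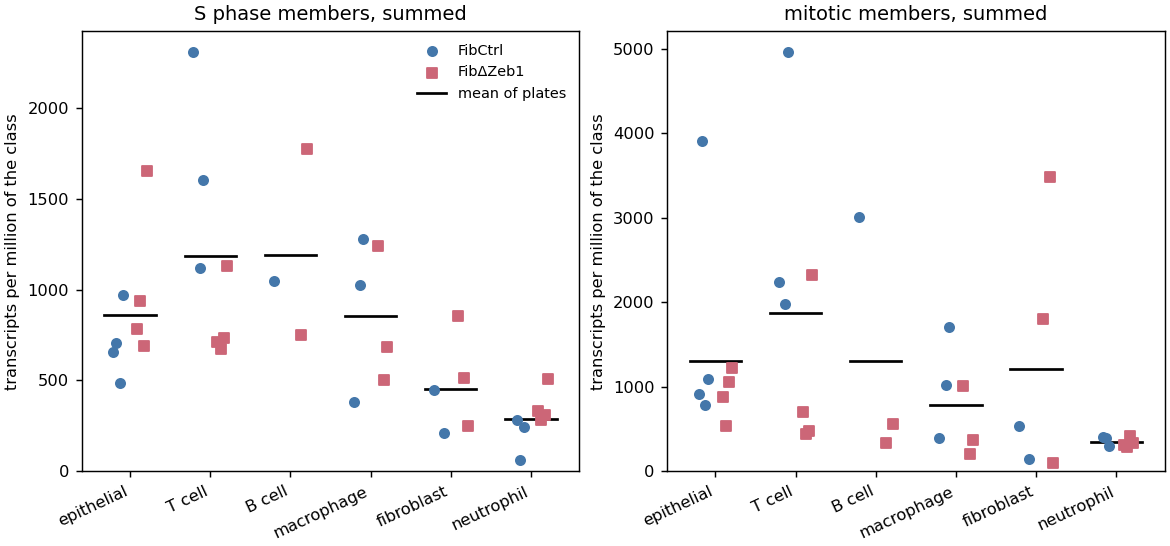
CPM in each class of the summed S-phase members (left) and mitotic members (right), 1 point per plate with at least 10 wells of the class, circles for FibCtrl and squares for FibΔZeb1, and a bar at the mean over plates. Neutrophil plates stay at or below 510 in both panels, while single plates reach 4963 (T cell) and 3912 (epithelial) for the mitotic sum.

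Among single members, the replication clamp Pcna was the most abundant S-phase gene, with 281 ± 81.2 CPM in epithelial, 351 ± 201 in T cell and 302 ± 106 in macrophage wells but 114 ± 46.9 in fibroblast wells. The fibroblast value of Pcna lay near that of neutrophils (110 ± 60.1). Mcm7 ranked next, from 130 ± 64.2 in B cell wells down to 35.2 ± 12.2 in fibroblast wells. Of the 15 S-phase members, 8 had their highest mean in B cell wells, 6 in T cell wells and 1, Ccne1, in macrophage wells. Of the 25 mitotic members, 14 were highest in T cell, 4 in B cell, 4 in fibroblast (Cdk1, Plk1, Kif20a and Prc1) and 3 in epithelial wells (Ccnb1, Cdc20 and Ube2c). Top2a averaged 245 ± 302 in T cell wells and 124 ± 105 in epithelial wells, and its T cell plates ran from 0 to 862. Not every member separated cycling classes from the background. Tyms, which makes thymidylate, was no higher in any of the 5 classes (30.1 to 34.2) than in neutrophil wells (48.6 ± 36.4), and Hmgb2, a DNA-bending protein, exceeded the neutrophil mean of 260 ± 84.7 only in T cell (434 ± 221) and B cell wells (457 ± 163). Kif23, a motor of the dividing midzone, also exceeded neutrophils only in those 2 classes.

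T cell wells carried more of several mitotic regulators than epithelial wells of the same plates. Tested within plates by edgeR's quasi-likelihood test over 8449 genes, 8 of the 39 members tested were higher in T cell wells and none was lower (Benjamini-Hochberg adjusted p under 0.05). Over all genes tested, 17.5% were higher and 23.7% lower, so the count of higher members was near the background, while their median log2 fold change was 0.77 against -0.13 for all genes. DESeq2 also called none lower, and with no adjustment 14 members had p under 0.05, a count not set against all genes. Kif11, the motor that separates spindle poles, averaged 42.4 ± 49.8 CPM in T cell wells and 16.3 ± 10.3 in epithelial wells (log2 fold change 1.90 ± 0.64 SE, edgeR adjusted p = 0.0139). Rrm2, the regulated subunit of ribonucleotide reductase, averaged 134 ± 113 and 38.3 ± 26.5 (1.85 ± 0.50, edgeR adjusted p = 0.00239). Plates of the classes overlapped for both genes, since each was at 0 on at least 1 T cell plate. The spindle protein Spag5 was higher by 1.78 on the log2 scale, the passenger kinase Aurkb by 1.67, the centromeric histone Cenpa by 1.35, Hmgb2 by 1.22, Mki67 by 1.21 (adjusted p = 0.0477) and Mcm6 by 1.10 (adjusted p = 0.0446), all by edgeR. The members at the other end, Stmn1 (-0.27) and Mcm2 (-0.19), did not pass the test. The calls depended on the tool and on single plates. DESeq2 kept 1 of the 8, Hmgb2, and 4, 5 and 3 members were called without FibCtrl replicate 1, 3 and 4 in turn, against 11 without FibΔZeb1 replicate 3 or 4. Without the epithelial wells of the cluster led by Twist1, 4 remained, Cenpa, Hmgb2, Rrm2 and Spag5. Hmgb2 kept its call under every alternative run.

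In B cell wells 3 of 39 members were higher than in epithelial wells and none was lower, against 14.6% of all genes higher and 17.8% lower. These were Aurkb (log2 fold change 2.69 ± 0.82 SE, edgeR adjusted p = 0.00905), the kinetochore motor Cenpe (2.42 ± 0.72, edgeR adjusted p = 0.00737) and Hmgb2 (1.40 ± 0.39, edgeR adjusted p = 0.00465). Cenpe stood at 217, 13.5 and 90.1 CPM on the 3 B cell plates, and the first of these, FibCtrl replicate 1, lay highest. Without that plate no member was called, and without the epithelial wells of the cluster led by Twist1 the call of Aurkb was lost (edgeR adjusted p = 0.0571). By DESeq2 1 member was called and none lower, and with no adjustment 5 had p under 0.05, a count not set against all genes.

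Macrophage wells lay near epithelial wells in these genes. The median log2 fold change of the 39 members was -0.07, equal to that of all genes, with 2 members higher and 2 lower, where 22.9% of all genes were higher and 22.1% lower. Rrm2 was higher (1.27 ± 0.50, edgeR adjusted p = 0.0343), as was Tuba1b, the main alpha-tubulin (0.78 ± 0.31, edgeR adjusted p = 0.0383). Cdc20, which activates the ubiquitin ligase of anaphase, was lower (-1.69 ± 0.62, edgeR adjusted p = 0.0238), with 7.09 ± 8.68 CPM against 45.6 ± 42.1 in epithelial wells. Stmn1, which takes microtubules apart, was lower too (-1.12 ± 0.41, edgeR adjusted p = 0.0219). Without FibCtrl replicate 3 only Stmn1 was called, and 2 members were called without FibΔZeb1 replicate 1 or 3. Without the epithelial wells of the cluster led by Twist1 the calls of Rrm2 (edgeR adjusted p = 0.17) and Tuba1b (0.177) were lost, and those of Cdc20 and Stmn1 were kept. DESeq2 called no member higher and 3 lower.

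Fibroblast wells carried less of several replication genes than epithelial wells. Of 12 S-phase members tested, 4 were lower and none higher, and of all 39 members 6 were lower and 1 higher, where 18.6% of all genes were lower and 20.8% higher. The count of lower members was thus near the background, and that of higher members below it. Pcna was lower (log2 fold change -1.02 ± 0.30 SE, edgeR adjusted p = 0.0049). The helicase subunits Mcm2 (-1.38 ± 0.38, edgeR adjusted p = 0.00271), Mcm5 (-1.24 ± 0.46, edgeR adjusted p = 0.0284) and Mcm7 (-1.05 ± 0.33, edgeR adjusted p = 0.00813) were lower as well. Fibroblast plates of Pcna lay between 80.7 and 195 CPM and epithelial plates between 195 and 447, so the classes met only at 195. Stmn1 differed most, with 67.1 ± 51.6 CPM in fibroblast and 299 ± 47.2 in epithelial wells (-1.82 ± 0.44, edgeR adjusted p = 0.000729), and its highest fibroblast plate, at 123, lay below its lowest epithelial plate, at 233. The calls of Pcna, Mcm2, Mcm7 and Stmn1 held under every alternative run and without each plate in turn, whereas those of Mcm5 and Hmgb2 (-0.90 ± 0.35, edgeR adjusted p = 0.0347) were lost by DESeq2 and without FibCtrl replicate 4 or FibΔZeb1 replicate 4, and that of Hmgb2 also without FibCtrl replicate 1. The mitotic members did not follow, with a median log2 fold change of 0.40 against -0.80 for the S-phase members. Cdk1 was the 1 member called higher (1.24 ± 0.51, edgeR adjusted p = 0.0463), a call lost under 7 of the other settings, among them leaving out the epithelial wells of the cluster led by Twist1, and without FibΔZeb1 replicate 1 or 3 and FibCtrl replicate 2 or 3.

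**Figure D2:**
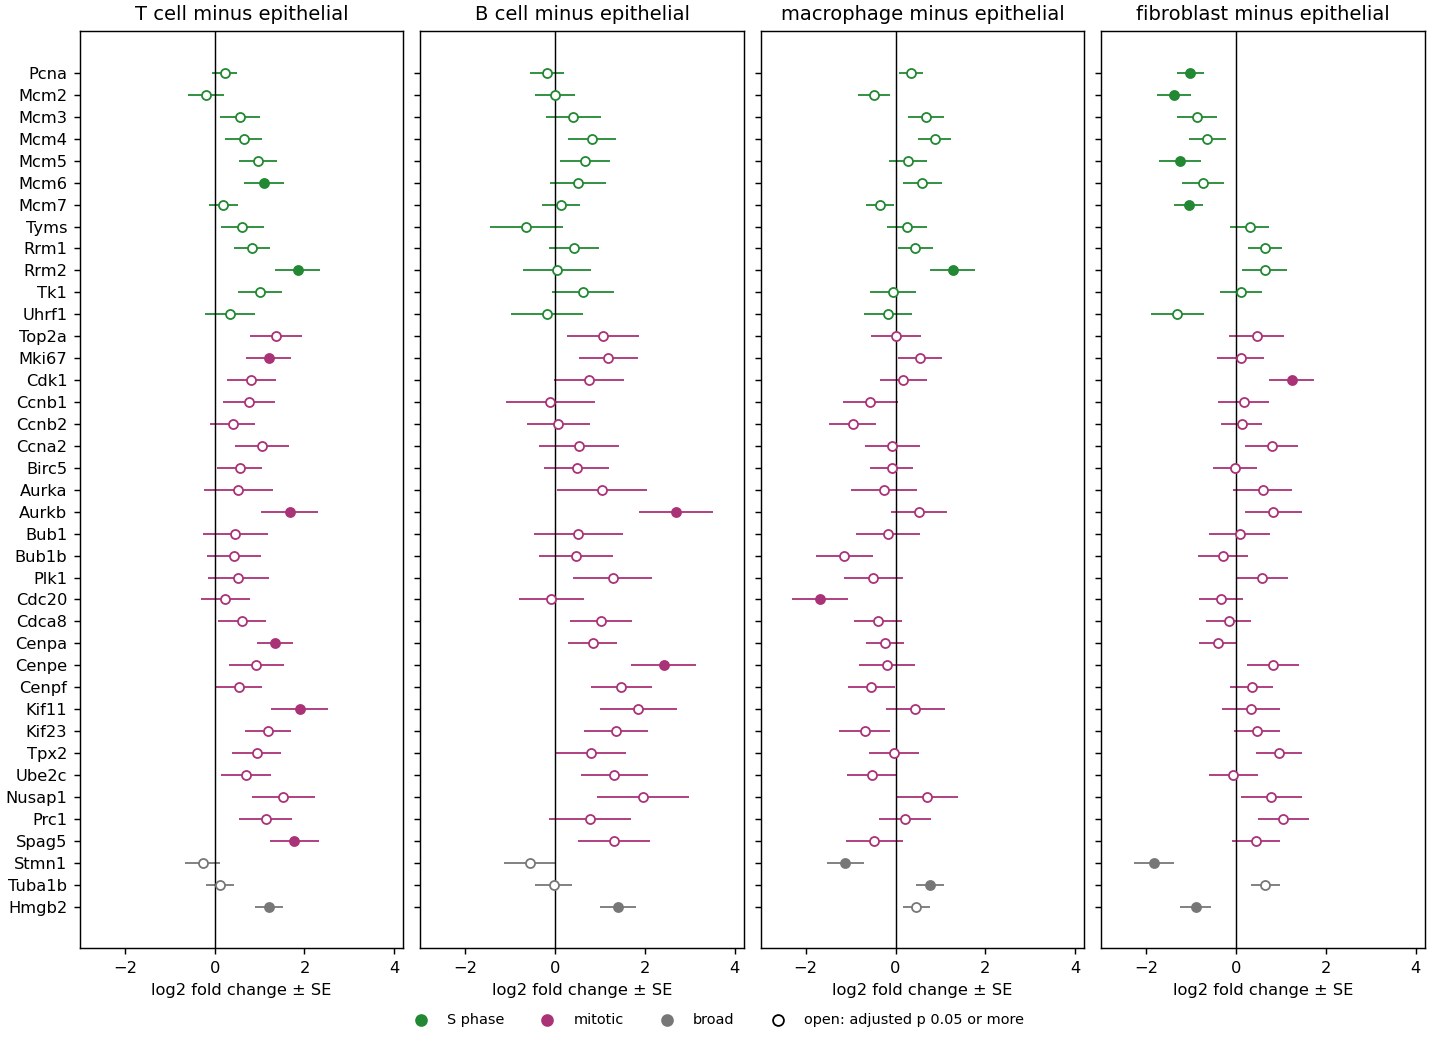
Log2 fold change (± SE) of each of the 39 members tested, in T cell, B cell, macrophage and fibroblast wells against epithelial wells of the same plates, with filled points for edgeR adjusted p under 0.05. The S-phase members (green) of fibroblast wells lie left of 0 for the helicase subunits and Pcna, while most mitotic members (purple) of T cell and B cell wells lie right of 0 with wide errors.

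Several regulators upstream of these genes also differed between the classes. Ccnd1, the D-type cyclin, averaged 338 ± 62.7 CPM in epithelial wells and 20.3 ± 19.8 in T cell, 42.9 ± 26.2 in B cell, 89.5 ± 49.8 in macrophage and 55.8 ± 62.9 in fibroblast wells. It was lower in all 4 classes, by log2 fold changes of -4.65, -3.19, -1.70 and -2.45, with edgeR adjusted p of at most 5.2e-05, and no plate of another class reached the lowest epithelial plate, at 243. Of the 6 G1 cyclins and kinases tested, 2 were higher and 2 lower in T cell wells, and 3 lower in B cell wells. In macrophage wells 4 were lower, and in fibroblast wells 1 was higher and 2 lower. Over all genes tested, 17.5% were higher and 23.7% lower in T cell wells, and 14.6% and 17.8% in B cell wells. These shares were 22.9% and 22.1% in macrophage wells, and 20.8% and 18.6% in fibroblast wells. Ccnd2 was highest in T cell wells (652 ± 193). Cdkn2a, which encodes the kinase inhibitor p16 and Arf, stood at 68.1 ± 26.1 in epithelial wells and at 8.51 ± 10.6 or less in those 4 classes, where it was lower by log2 fold changes between -5.29 and -2.86. Cdkn1a, the inhibitor p21, followed another order. It averaged 743 ± 71.6 in macrophage wells (log2 fold change 1.51 ± 0.30, edgeR adjusted p = 3.36e-05), 386 ± 224 in epithelial and 123 ± 54.2 in fibroblast wells, and neutrophil wells carried the most, 1363 ± 286.

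Among the E2F, pocket protein and MuvB genes, 9 of 15 could be tested. Of these, 3 were higher in T cell and 2 in B cell wells, none passed in macrophage, and 2 were lower in fibroblast wells. For this and the following lists, the shares of all genes called are those given above for the G1 genes. The lists are short, so nothing is read from their counts against those shares. Rbl2, the pocket protein p130 that holds E2F genes off in resting cells, averaged 134 ± 74.4 CPM in T cell wells and 14.0 ± 5.09 in epithelial wells (log2 fold change 2.99 ± 0.37, edgeR adjusted p = 3.55e-09). E2f2 was higher in T cell (2.45) and B cell wells (2.59) and lower in fibroblast wells (-3.30), where it averaged 0.444 CPM. Of 13 genes of origin licensing and the replication fork, 4 were higher in T cell, 2 in B cell and 2 in macrophage wells, and 2, the licensing factor Cdt1 (-1.44) and its inhibitor Gmnn (-2.02), were lower in fibroblast wells. Of 13 checkpoint and spindle genes, Cdc25b, a phosphatase that activates Cdk1, was the 1 gene called in T cell (2.00) and B cell wells (2.31). In fibroblast wells the contractile ring protein Anln (1.97) and the kinetochore subunit Spc25 (1.90) were higher and the checkpoint protein Mad2l1 was lower (-1.07). Without the epithelial wells of the cluster led by Twist1, the calls of Rbl2 in B cell wells, Fen1 in macrophage wells and Cdkn1a, Cdkn2d, Rb1 and Spc25 in fibroblast wells were lost (edgeR adjusted p between 0.0725 and 0.379). Of 7 genes of mature colon epithelium tested, 6 were called lower in T cell, 5 in B cell, 6 in macrophage and 3 in fibroblast wells. These calls do not check the epithelial class as a whole. The mature genes summed to 12.1 to 8781 CPM over epithelial plates and to 48.3 to 1689 over B cell plates. On FibΔZeb1 replicate 2, 25 of 63 epithelial wells held at least 10000 CPM of them.

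Few wells carried most of the mitotic transcripts. In the 5 dividing classes, between 1 and 5 wells of a plate held at least 50% of the mitotic transcripts of a class. The S-phase transcripts took 1 to 10 wells. Neutrophil plates, with only 10 to 44 mitotic transcripts each, took 2 to 7 wells for the mitotic transcripts. The range of wells alone thus does not set the dividing classes apart. In T cell wells of FibCtrl replicate 3, 1 of 16 wells held 84.2% of the mitotic transcripts. The plate's level was 1974 CPM with it and 369 without it. In FibΔZeb1 replicate 4, 1 of 13 T cell wells held 92.5%, and the level was 2320 with it and 233 without it. Both wells carried Cd3e and were the deepest T cell wells of their plates. Among fibroblast wells of FibΔZeb1 replicate 3, 1 of 14 held 85.8% of the mitotic transcripts, so that 3489 CPM became 731. That well was the deepest of its class and plate, with 157100 transcripts, of which 3033 were Col1a2, 1 was Epcam and 1 was Ptprc, and 39 of the 40 S-phase and mitotic members were detected in it. The 1 B cell well with 60.5% of the mitotic transcripts in FibCtrl replicate 1 lowered the plate from 3019 to 1399 when left out, and in epithelial wells of FibCtrl replicate 2 the deepest well held 54.2%, 3912 with it and 2316 without it. No doublet caller was run, and whether such deep wells held more than 1 cell was not tested.

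**Figure D3:**
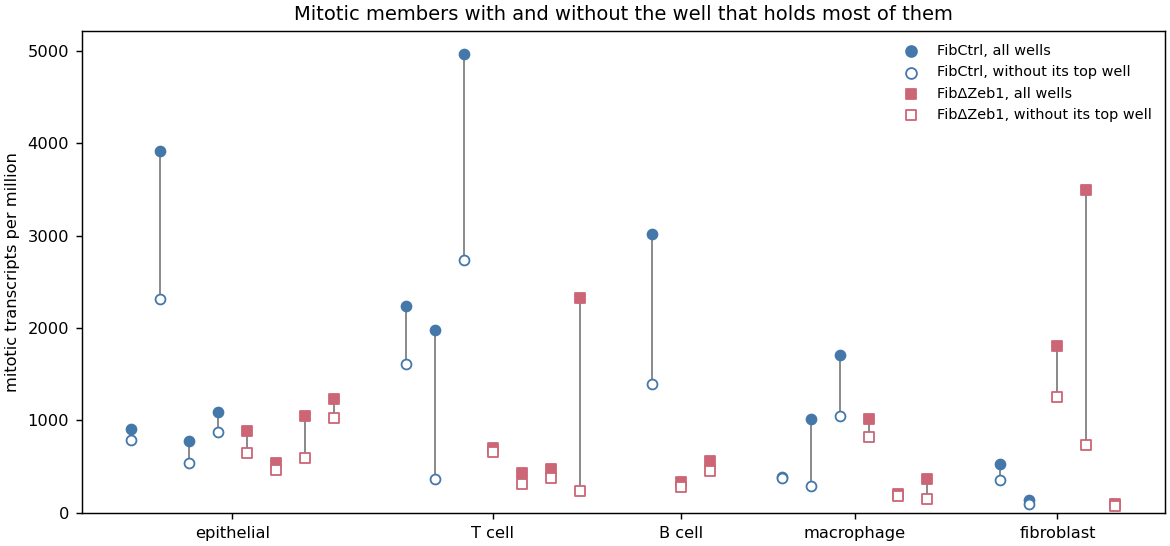
CPM of the mitotic members for each class and plate (1 line per plate, FibCtrl circles, FibΔZeb1 squares), with all wells (filled) and without the well that holds most of them (open). The longest lines, in T cell, fibroblast and epithelial wells, belong to plates where 1 well held over 50% of the mitotic transcripts.

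To compare the share of cycling wells at equal depth, 1000 transcripts were drawn from each well and wells with at least 3 S-phase or mitotic transcripts were counted. At these settings epithelial wells had the highest share, 18.1% ± 6.58 (SD, n = 8 plates), with plates between 8.82% and 29.3%. T cell wells followed with 13.3% ± 11.1 (n = 7), fibroblast wells with 11.7% ± 11.9 (n = 5), B cell wells with 11.6% ± 7.65 (n = 3) and macrophage wells with 9.28% ± 4.48 (n = 6). Neutrophil wells, at a median of 1918 transcripts against 25436 in epithelial wells, had 3.10% ± 4.72 (n = 7), from 0% to 11.1%, which sets the background. The plate ranges of the 5 classes overlapped one another, and the lowest T cell and fibroblast plates had no such well, 0 of 17 on both, which allows a share of up to 19.5% (exact Clopper-Pearson, 95%, counting error only). Undrawn, the shares were 88.5%, 60.8%, 63.9%, 51.5% and 73.8% in the same order, with 19.2% in neutrophil wells. Wells under 1000 transcripts were left out, 10 epithelial, 1 T cell, 26 fibroblast, 2 B cell, 6 macrophage and 18 neutrophil wells. The expected share over all possible draws was 18.7%, 18.0%, 10.4%, 14.4% and 11.1% in that order, so the rank of T cell, B cell and fibroblast wells rested on the draw. The place of epithelial wells rested on the settings too. At 2000 drawn transcripts B cell (48.4%) and T cell wells (38.7%) lay above epithelial wells (32.5%), and with at least 2 transcripts in 1000 T cell (38.5%) and B cell wells (32.1%) lay above epithelial wells (27.7%).

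**Figure D4:**
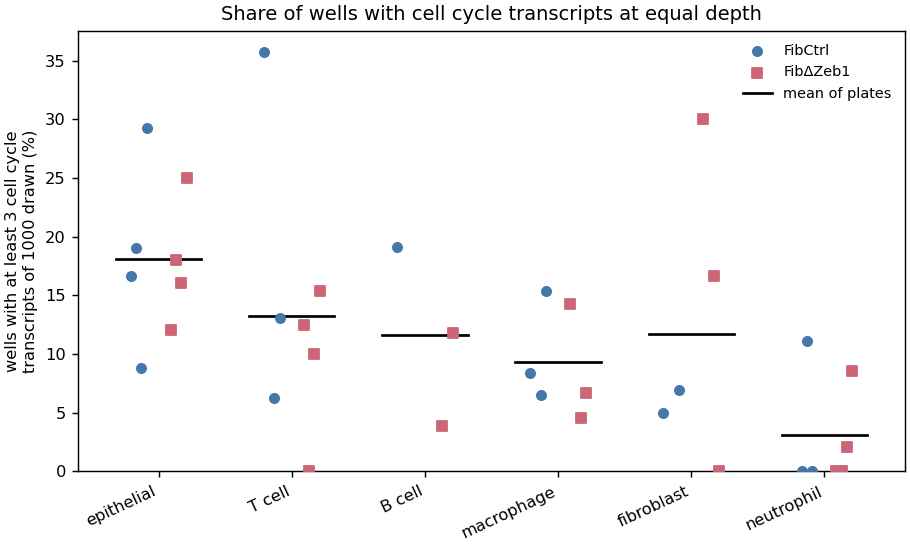
Percent of wells with at least 3 S-phase or mitotic transcripts among 1000 drawn per well, 1 point per plate (circles FibCtrl, squares FibΔZeb1) and a bar at the mean of plates. Epithelial plates lie between 8.82% and 29.3%, and neutrophil plates, the background, between 0% and 11.1%.

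Wells called cycling, those with an even or better chance of reaching 3 in 1000, held a large part of all S-phase and mitotic transcripts. In epithelial wells 54 of 316 (17.1%) held 72.2%, in T cell wells 20 of 137 (14.6%) held 81.0%, in B cell wells 9 of 116 (7.76%) held 69.1%, in macrophage wells 13 of 142 (9.16%) held 75.2% and in fibroblast wells 8 of 108 (7.41%) held 79.7%. A median of 31.5 members was detected in a cycling epithelial well and 7 in the others, and 34 and 4 in fibroblast wells. Cycling wells were deeper, with a median of 40530 transcripts against 24340 in epithelial wells (deeper on 8 of 8 plates) and 57650 against 17900 in fibroblast wells (on 3 of 4). In T cell wells it was 5322 against 3282 (on 5 of 7 plates). The choice of these wells used the same transcripts, so these values describe them and test nothing.

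Between genotypes, T cell wells of FibΔZeb1 tumours tended to carry fewer cell cycle transcripts than those of FibCtrl tumours. The 1 member that passed the test had entered it through its high level in FibCtrl. The mitotic sum was 2240, 1974 and 4963 CPM in FibCtrl replicates 1, 3 and 4, and 702, 435, 474 and 2319 in FibΔZeb1 replicates 1 to 4. The groups overlapped through FibΔZeb1 replicate 4, the plate whose level rested on 1 well. The S-phase sum was 2313, 1122 and 1604 against 715, 673, 735 and 1131, where FibΔZeb1 replicate 4 again passed the lowest FibCtrl plate. Stmn1, Tuba1b and Hmgb2 together reached 2121, 2265 and 2846 in FibCtrl and 561, 633, 640 and 1421 in FibΔZeb1, with no overlap. Flow cells were taken from a code in the file names. Within them the difference in the mitotic sum (FibΔZeb1 minus FibCtrl) was -1672 and -2072. The first rested on 1 FibCtrl and 2 FibΔZeb1 plates, the second on 2 of each. When each well was weighted equally instead of by its depth, the mitotic difference shrank from -2077 to -596 and the S-phase difference from -867 to -334. The share of wells with at least 3 of 1000 was 18.3% ± 15.4 (n = 3) in FibCtrl and 9.47% ± 6.69 (n = 4) in FibΔZeb1, with overlapping plates. The difference in share was -29.5 points in one flow cell and 3.05 in the other, and it fell from -8.87 to -0.176 points without FibCtrl replicate 1.

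Only 8 members were abundant enough in T cell wells to be tested, since 1007 genes passed the filter. Stmn1 stood at 453, 520 and 469 CPM in FibCtrl and at 102, 79.2, 119 and 116 in FibΔZeb1. It was the 1 gene called of 1007, which is 0.0993%, with a log2 fold change of -2.18 ± 0.33 SE (edgeR adjusted p = 0.0126). Its transcripts numbered 118, 25 and 74 in FibCtrl but 8, 4, 5 and 4 in FibΔZeb1. Stmn1 thus passed the filter through the group where it was high, and nothing is read from this call against the background. Tuba1b stood at 1147, 1372 and 1572 against 255, 317, 237 and 696 (-1.88 ± 0.36, edgeR adjusted p = 0.0627), and Top2a at 341, 291 and 862 against 12.8, 0, 94.8 and 116 (-3.42 ± 0.67, edgeR adjusted p = 0.0627). Neither of these passed by edgeR, and both passed by DESeq2 (adjusted p = 0.000333 and 0.00214). Mki67 overlapped between groups, with 284, 125 and 628 against 25.5, 79.2, 47.4 and 232 (-2.11 ± 0.63, edgeR adjusted p = 0.697). For 4 of the 8 members, Pcna, Stmn1, Top2a and Tuba1b, every FibΔZeb1 plate lay below every FibCtrl plate, against 2.88% of the 1007 genes (29 genes). Members such as Top2a, for which 89, 14 and 136 transcripts were counted in FibCtrl but 1, 0, 4 and 4 in FibΔZeb1, passed the filter through the group where they were high, so nothing is read from this count against the background. The Stmn1 call was lost without any single plate other than FibΔZeb1 replicate 4 (edgeR adjusted p between 0.06 and 0.111), with classes from clusters (0.0968), with wells of at least 1000 transcripts (0.066) and with the replicate number as a block (0.164). In FibCtrl replicate 3, 1 well held 96.0% of the 25 Stmn1 transcripts, and without it the plate stood at 24.6 CPM, below FibΔZeb1, which stood at 38.9 to 61.0 when its own top wells were left out.

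Other gene lists moved beside these in T cell wells. The checkpoint and spindle genes summed to 844, 956 and 1775 CPM in FibCtrl against 332, 277, 213 and 812 in FibΔZeb1, and the origin and fork genes to 1343, 1039 and 1179 against 727, 515, 735 and 783. Neither list overlapped between genotypes, while the G1 cyclins and the kinase inhibitors did. The E2F, pocket protein and MuvB genes did not overlap either, with a mean of 733 CPM in FibCtrl and 481 in FibΔZeb1. The T cell markers themselves (9 of 12 detected) summed to 4876 to 5466 CPM in FibCtrl and 4196 to 4871 in FibΔZeb1, also without overlap. Markers of other classes overlapped, with 11 of 12 fibroblast markers detected, at a summed level of 1122 to 5490 CPM in FibCtrl and 1029 to 4440 in FibΔZeb1, and epithelial markers at 249 to 503 and 230 to 1049. Median depth per T cell well was 2471 to 4281 transcripts in FibCtrl and 2025 to 3358 in FibΔZeb1. The part of these in the result was not tested.

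**Figure D5:**
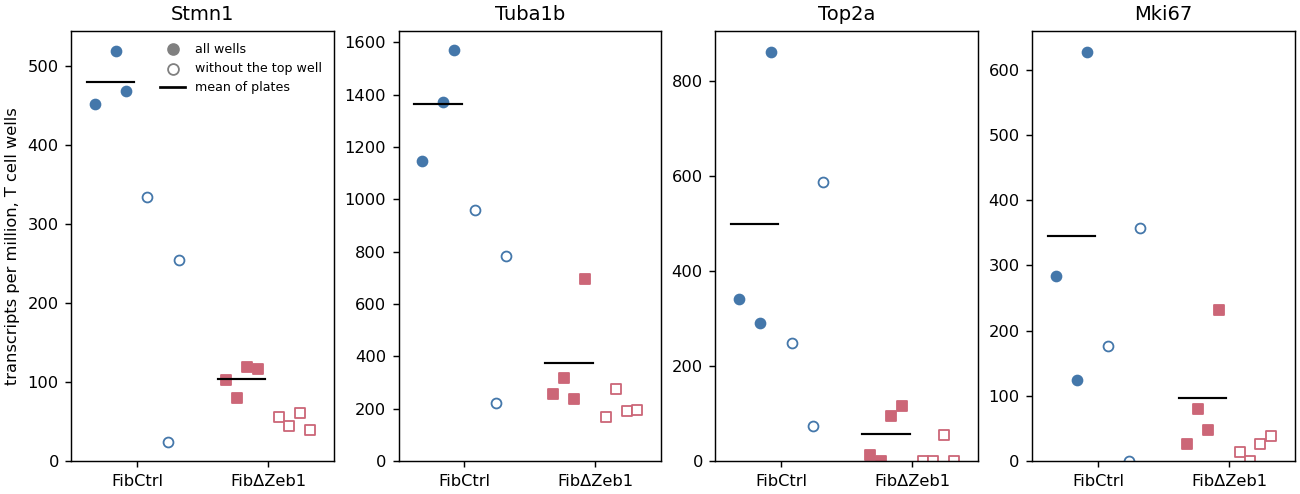
Stmn1, Tuba1b, Top2a and Mki67 in CPM of T cell wells, 1 point per plate, FibCtrl (circles) and FibΔZeb1 (squares), with all wells (filled) and without the well holding most of that gene (open), and a bar at the mean of plates. With all wells the 3 FibCtrl plates of Stmn1 stay above 450 and the 4 FibΔZeb1 plates below 120, and without the top well 1 FibCtrl plate falls to 24.6.

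In B cell wells only FibCtrl replicate 1 and FibΔZeb1 replicates 2 and 4 could be compared, so the single FibCtrl plate was taken to vary like the FibΔZeb1 plates. The mitotic sum was 3013 against 338 and 563, and the S-phase sum 1048 against 750 and 1779. The mitotic value of the FibCtrl plate lay above both others and its S-phase value between them. With equal weights per well the mitotic values were 1057 against 310 and 404, and the difference shrank from -2562 to -699.5. By edgeR 4 of 31 members were lower in FibΔZeb1, where 0.599% of 4010 genes were called. Members such as Top2a, Mki67 and Ube2c passed the filter through the 1 FibCtrl plate, where they were high, so nothing is read from this count against the background. Top2a stood at 319 against 13.5 and 0 (66 transcripts against 2 over both plates, a ratio of 30.7 with a 95% counting interval of 8.16 to 258; edgeR adjusted p = 4.46e-06). Mki67 stood at 381 against 33.8 and 90.1 (-2.88 ± 0.65, edgeR adjusted p = 0.00409). Ube2c stood at 222 against 20.3 and 45.0 (-2.97 ± 0.76, edgeR adjusted p = 0.0185), and Tuba1b at 1289 against 372 and 293 (-1.89 ± 0.47, edgeR adjusted p = 0.0135). With only 1 FibCtrl plate, that all 4 were highest on it goes with the calls and is no further result. DESeq2 called none of the members, and none was called with classes from clusters or with plates of at least 5 wells. Without the 1 well that held 62.2% of its Top2a, the FibCtrl plate kept 142 CPM. The same plate held fewer transcripts of mature colon epithelium, 48.3 CPM against 518 and 1689, with Lypd8 and Muc2 called higher in FibΔZeb1 (4.98 ± 0.70 and 7.11 ± 1.58, edgeR adjusted p = 4.15e-09 and 0.00315), and more of the fibroblast markers, 6547 against 1189 and 3400. Their part in the result was not tested.

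Fibroblasts, the cells in which Zeb1 was deleted, showed no called member. The mitotic sum was 533 and 142.5 CPM in FibCtrl replicates 1 and 4 and 1806, 3485 and 92.3 in FibΔZeb1 replicates 1, 3 and 4. FibΔZeb1 plates thus lay both above and below FibCtrl, and the S-phase sums (447 and 209 against 854, 514 and 250) overlapped too. None of 39 members passed by edgeR, where 1 of 7044 genes (0.0142%) was called, and DESeq2 called none either. By edgeR 13 members had an unadjusted p under 0.05, and 23 were called with no filter on low counts. Neither count is set against all genes under the same setting, so nothing is read from them. The median log2 fold change of the members was 2.00 against 0.00 for all genes. Without the well of FibΔZeb1 replicate 3 described above, that plate stood at 731. Median depth per fibroblast well was 10660 and 9196 in FibCtrl and 31860, 25690 and 10060 in FibΔZeb1, so the plates with the most mitotic transcripts were also the deepest, and the part of depth was not tested.

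Epithelial wells showed no difference that passed the test. None of 41 members was called by edgeR, and 0% of the 9873 genes were called. With no adjustment 6 members had p under 0.05, a count not set against all genes. The mitotic sum was 911, 3912, 781 and 1096 CPM in FibCtrl and 881, 539, 1050 and 1227 in FibΔZeb1. FibCtrl replicate 2 stood far above the other plates, and without it the mean difference of the mitotic sum fell from -751 to -5.00. The S-phase sum was 656, 705, 484 and 974 against 785, 937, 688 and 1654, higher in FibΔZeb1 by 312 on average with overlapping plates. In macrophage wells none of 20 members was called, with 0 at an unadjusted p under 0.05 and 0% of 4343 genes called. The macrophage mitotic sum was 390, 1016 and 1702 in FibCtrl replicates 1, 3 and 4 and 1013, 206 and 365 in FibΔZeb1 replicates 1, 3 and 4, and the difference had opposite signs in the 2 flow cells (623 and -1074). DESeq2 called no member in either class.

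Whether the genotype effect differed between classes was tested in 1 model over all classes, with the plate and the class as terms. No member was called in any of 6 differences between classes. The lowest adjusted p of a member was 0.262 by edgeR, for fibroblast against T cell wells, where 33 of 41 members had an unadjusted p under 0.05 against 534 of 8718 genes, and the median difference was 3.48 on the log2 scale. For T cell against epithelial wells the lowest was 0.817, with 20 of 41 members at an unadjusted p under 0.05 against 439 of 8718 genes. In neutrophil wells, the background, the S-phase sum averaged 359 ± 103 in FibΔZeb1 and 196 ± 117 in FibCtrl. The groups all but met, at 281.2 CPM in FibΔZeb1 replicate 2 (10 transcripts) and 280.6 in FibCtrl replicate 2 (13 transcripts). The mitotic sums overlapped (333 ± 58.0 and 366 ± 64.4).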

How the data were processed

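Single cells of 8 tumours were processed by the SORT-seq protocol (CEL-Seq2 chemistry) on 1 plate of 384 wells per mouse, with 4 plates per genotype, and sequenced on NextSeq 500 instruments. The engineered alleles of the organoids are not reported here. Reads were aligned by the authors to GRCm38 with BWA, and their processing notes also list Cell Ranger 2.1.1. The deposited values are estimated counts, unique molecular identifiers corrected by the authors for collisions, and they were not normalised. The same 384 well barcodes occur on all 8 plates. Spike-in and mitochondrial rows were left out of the totals. Wells with under 500 cell transcripts were dropped, as were those whose mitochondrial share passed the median by more than 3 median absolute deviations (scaled to a normal SD).

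Each kept well took the class whose marker genes had the highest mean z score, with a score of at least 0.5, a lead of at least 0.25 and at least 3 detected markers. These limits were set after seeing the data, and 3 of the 12 T cell markers were not found in the tables. Fibroblast wells with at least 2 transcripts of Ptprc or Epcam were dropped. No doublet caller was run. Against classes from Leiden clusters made without cell cycle genes, 273 of 326 epithelial, 126 of 141 T cell, 132 of 133 B cell, 143 of 150 macrophage and 133 of 146 fibroblast wells had the same class. The cluster led by Twist1 (109 wells) was named epithelial although no epithelial marker was among its 10 leading genes, and leaving its wells out of the epithelial class was added after seeing the data.

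For each class and plate with at least 10 wells, counts were pooled, rounded to whole numbers and tested with edgeR 4.0.16 (quasi-likelihood test, TMM, filterByExpr, R 4.3.3, limma 3.58.1) with Benjamini-Hochberg adjustment over all genes tested. Classes were compared with the plate as a term, genotypes within a class without covariates. List sums in CPM (per 1000000 cell transcripts) and shares of wells carry no test. Draws of 1000 transcripts per well used random seed 1. The steps were tested on simulated data. Alternatives were DESeq2 1.42.0, other filters, classes from clusters, the flow cell or the replicate number as a term, other depths of drawing, and each plate left out in turn. Equal weights per well, the mean over all draws and the test of genotype effects between classes were added after seeing the data. Python 3.11.15, numpy 2.4.6, pandas 2.3.3, scipy 1.17.1, scikit-learn 1.9.0 and leidenalg 0.10.2 were used.

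The members, lists and tests were chosen with earlier results of these data known. Values are given for the 4 S-phase and 6 mitotic members of highest level, the 3 others, members called between genotypes, the 2 largest and 2 smallest changes of each class comparison, and Cdkn1a and the 2 largest changes per pathway list. The other genes named were chosen after their values were seen. Replicate numbers were not taken as pairs, since the labels name no shared litter or day and in no class with at least 3 pairs did every correlation of same-numbered plates pass 0.1 (epithelial 0.096 to 0.549, T cell 0.032 to 0.095, macrophage -0.030 to 0.107). In fibroblast wells the 2 pairs gave 0.319 and 0.220. The mice are separate animals, and intervals on counts cover counting error only.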

Additional observations from a re-analysis of the deposited data

Results flagged for a closer look

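Among groups of 4 plates, 10 of 51 tested held a plate far from the other 3 by Dixon's test. The same plates and genes recur in these tests, so they are not independent and no chance rate is set beside the count. Of the 10 flags, 6 were FibCtrl replicate 2 in epithelial wells. Its mitotic sum was 3912 CPM, with Ube2c at 725, Cdk1 at 315, Ccna2 at 190, Hmgb2 at 321 and Mcm7 at 119. In FibCtrl replicate 4, Mcm6 stood apart in epithelial wells at 65.7 CPM. In T cell wells FibΔZeb1 replicate 4 stood above the other 3 FibΔZeb1 plates in all 3 lists, at 1131 for S phase, 2319 for mitosis and 1421 for Stmn1, Tuba1b and Hmgb2 together.

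Wells outside the classes compared also carried these transcripts above the pooled level of neutrophil wells (293 for S phase and 355 for mitosis). The 625 wells without a class held 690 CPM of S-phase and 1271 CPM of mitotic transcripts. The 9 dendritic-like wells held 1757 and 2032, the 26 mesothelial-like wells 723 and 1779, and the 31 pericyte-like wells 455 and 914. For S phase alone, the 9 NK or innate lymphoid-like wells held 982 and the 13 mast-like wells 1048. These wells come from several plates, and none of these values was tested.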

How the results depend on the processing

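With DESeq2, 1 member was called in T cell (8 by edgeR), 1 in B cell (3) and 4 in fibroblast wells (7) against epithelial wells, and between genotypes 3 in T cell (1) and 0 in B cell wells (4). With no filter on low counts the calls against epithelial wells were 15 in T cell, 8 in B cell, 8 in macrophage (4 with the filter) and 13 in fibroblast wells. Between genotypes they were 7 in T cell, 1 in macrophage (0) and 23 in fibroblast wells (0). These counts are not set against all genes called in the same runs, so nothing is read from them. With plates of at least 5 wells the calls were 4 in T cell and 2 in macrophage wells, and 0 in B cell wells between genotypes. Without the plate term they were 5 in T cell and 2 in macrophage wells, and without the epithelial wells of the cluster led by Twist1 4 and 2. Between genotypes, classes from clusters gave 0 in T cell and 0 in B cell wells, and wells of at least 1000 transcripts 0 in T cell and 7 in B cell wells. The replicate number as a block left 0 calls in T cell wells (Stmn1 adjusted p = 0.164 by edgeR) and changed no other count of calls. The correlations of same-numbered plates were 0.055, 0.032 and 0.095 in T cell wells. In B cell wells no fit with the flow cell, the block or a plate left out was possible, because only 1 FibCtrl plate entered.

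Leaving out 1 plate at a time gave 3 to 11 calls for T cell, 0 to 5 for B cell, 1 to 5 for macrophage and 6 to 8 for fibroblast wells against epithelial wells, and between genotypes 0 to 2 in T cell and 0 in epithelial, macrophage and fibroblast wells. The difference in the S-phase sum (FibΔZeb1 minus FibCtrl, CPM) then ran from 99.2 to 421 in epithelial, -1145 to -550 in T cell, -298 to 731 in B cell, -344 to 104 in macrophage and 54.0 to 356 in fibroblast wells. The mitotic difference ran from -1049 to -5.00, -2619 to -1125, -2675 to -2450, -831 to -175 and 611 to 2308 in the same order. The share of wells ran from 16.5 to 19.4%, 9.53 to 15.5%, 7.80 to 15.5%, 8.06 to 10.2% and 7.14 to 14.6%, and its difference between genotypes from -3.90 to 2.91, -14.9 to -0.176, -15.3 to -7.38, -4.45 to 1.11 and 2.39 to 17.4 points.

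The mitotic difference in B cell wells (-2562) was -2073 with classes from clusters, -1262 with at least 5 wells, -2802 with at least 1000 transcripts and -699.5 with equal weights per well. Equal weights gave -334 (S phase) and -596 (mitosis) in T cell wells. The mean share of wells was 10.3% in epithelial and 1.42% in B cell wells at 500 transcripts per well. At 2000 it was 32.5% in epithelial, 38.7% in T cell, 48.4% in B cell and 21.3% in macrophage wells. Undrawn it was 88.5%, 60.8%, 51.5% and 73.8%, and 63.9% in fibroblast wells. With at least 2 transcripts it was 27.7%, 38.5%, 32.1% and 19.0%, and another draw gave 19.9% in B cell wells. The difference in share in B cell wells (-11.3 points) was -4.37 with at least 5 wells per plate, -4.26 at 500, -0.43 at 2000, -24.9 undrawn, -2.93 with at least 2 and -0.35 with at least 5 transcripts, 10.7 in another draw and 0.139 over all draws. In macrophage wells (-1.56) it was -10.3 at 2000 and -6.63 with at least 2 transcripts. Of single genes, 532 values kept direction and side of the threshold under these alternatives, 10 became and 80 ceased to be called. With a plate left out, 511 kept both, 5 became called, 82 were lost, and 2 changed sign, Mcm2 in T cell wells (-0.54 without FibCtrl replicate 1 to 0.027 without FibCtrl replicate 4) and Prc1 in fibroblast wells (-0.10 without FibΔZeb1 replicate 3 to 1.484 without FibCtrl replicate 4). The cause of these changes was not tested. In T cell wells 8 of 43 members could be tested between genotypes.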

Other observations

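Epithelial wells were not alike in maturity. On FibΔZeb1 replicate 2, 25 of 63 epithelial wells held at least 10000 CPM of mature colon genes, and these wells carried 288 CPM of S-phase and 126 CPM of mitotic transcripts against 1117 and 653 in the other epithelial wells of that plate. On FibCtrl replicate 2, 4 of 25 wells did so, with 99.2 and 516 against 768 and 4264. FibCtrl replicate 3 and FibΔZeb1 replicate 4 had 1 such well each, and the other 4 plates had none. Whether these wells are grafted tumour cells or normal colon epithelium of the host was not tested.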
